A study of Rattus norvegicus with 12 samples.

Results

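The genes described here encode connexins and a pannexin, the proteins of gap junctions and of related ATP-releasing channels. They are Gja1 (Cx43), Gja4 (Cx37), Gja5 (Cx40), Gjb2 (Cx26), Gjb6 (Cx30), Gjc1 (Cx45) and Panx1. They were listed by name, with no measured value in the rule, and all 7 were found among the 17315 genes of the count files. Of these, 6 passed the filter on low counts and were tested, and Gjb6 did not.

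Polyadenylated RNA was sequenced from 12 cultures labelled as Müller glia, which span the retina and support its neurons, all from Sprague-Dawley rats. SIRMu-1 (5 libraries, passages 6, 11, 11, 11 and 20 in replicates 1 to 5) is a spontaneously immortalized line from pups aged 2 to 4 days. Cells of adult rats, transformed with the large T antigen of SV40, gave rMC-1 (3 libraries, passages 23, 26 and 26). The primary cultures (4 libraries, passages 4, 4, 3 and 3) came from pups aged 2 to 4 days. All media held 25 mM glucose, with 20% serum for SIRMu-1 and primary cultures and 10% in rMC-1 medium. The drugs amphotericin B, at 2.2 mg/L, and gentamicin, at 87 mg/L, were given to SIRMu-1 replicates 3 and 5 and to all primary cultures, and to no rMC-1 culture. Each line is a single line grown several times, so its spread is that between cultures. Nothing in the labels says whether cultures came from separate animals, so a p-value here measures only how these libraries spread, and some of that spread may be technical. Line, passage, serum, drugs, donor age and route of immortalization change together between the groups, and their parts in any difference below cannot be told apart.

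Connexin subunits form rings in the cell membrane called hemichannels. Hemichannels of neighbouring cells dock to make a gap junction, which passes ions and small molecules such as potassium, glucose, glutamate and inositol trisphosphate from cell to cell. Astrocytes of brain and retina are known for networks built mainly from Gja1, while Gja4 and Gja5 are best known from endothelium, Gjc1 from smooth muscle and cardiac conduction, and Gjb2 from epithelia, cochlear supporting cells and meninges. Pannexins share the membrane layout of connexins but work mostly as single-membrane channels that let ATP out of the cell.

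Promoters of 3 members are shown, chosen after their values were seen. They are those of Gja1, the main connexin of astrocytes, of Gja4, near absent in rMC-1, and of Panx1, lower in every library of both lines. Each is the RefSeq window on assembly GRCr8 from 250 bases before to 50 bases after the annotated start, written 5′ to 3′ on the gene's strand. The windows are chr20:36302314-36302613 on the plus strand for Gja1, chr5:144920275-144920574 on the minus strand for Gja4 and chr8:20171151-20171450 on the minus strand for Panx1. Capitals mark matches, on either strand, to the GC box GGGCGG or the AP-1 motif TGANTCA.
Gja1: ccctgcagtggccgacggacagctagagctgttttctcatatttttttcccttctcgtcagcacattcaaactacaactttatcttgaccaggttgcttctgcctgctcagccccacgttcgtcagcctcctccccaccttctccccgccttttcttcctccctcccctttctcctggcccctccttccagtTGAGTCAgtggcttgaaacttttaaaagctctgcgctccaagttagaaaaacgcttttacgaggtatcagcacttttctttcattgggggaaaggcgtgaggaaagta
Gja4: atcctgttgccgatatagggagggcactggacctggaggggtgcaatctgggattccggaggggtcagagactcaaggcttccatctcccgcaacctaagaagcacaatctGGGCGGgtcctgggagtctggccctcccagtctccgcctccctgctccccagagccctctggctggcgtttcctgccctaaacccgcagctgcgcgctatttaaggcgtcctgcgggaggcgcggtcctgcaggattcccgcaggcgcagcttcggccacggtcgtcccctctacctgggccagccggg
Panx1: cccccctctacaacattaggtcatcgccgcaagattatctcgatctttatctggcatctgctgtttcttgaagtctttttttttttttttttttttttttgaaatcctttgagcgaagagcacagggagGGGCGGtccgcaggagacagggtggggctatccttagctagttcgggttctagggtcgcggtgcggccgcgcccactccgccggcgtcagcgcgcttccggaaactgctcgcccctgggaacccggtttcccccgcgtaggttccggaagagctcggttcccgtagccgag

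The Gja1 window held 1 AP-1 match, beginning 58 bases before the start (position -58), and no GC box. A match to the E-box CANNTG begins at -62 and overlaps it. The Gja4 window held 1 GC box at -139 and the Panx1 window 1 GC box at -121, and neither held an AP-1 match. Both also held 1 E-box match, at -53 for Gja4 and at -196 for Panx1. Among 33469 rat promoter windows of the same length, 33.1% held the GC box, 7.33% the AP-1 motif, 72.1% the E-box and 14.2% the TATA motif TATAAA, which none of these 3 windows held. The windows contained 10, 19 and 26 CpG dinucleotides for Gja1, Gja4 and Panx1. Such matches describe letters and are not binding sites, and Gjc1 had no window in the table used.

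The libraries held 26349346 to 36730443 reads in genes for SIRMu-1, 27351014 to 38125630 for rMC-1 and 22582345 to 29812705 for primary cultures. Levels are given in CPM on the TMM scale (each count divided by the effective size of its library), so a level of a gene is compared between libraries and never with that of another gene. All 11 Müller markers reported here had counts in primary cultures, while Aqp4 and Car2 had none in either line, nor had Kcnj10 in SIRMu-1 and Abca8a in rMC-1. Glul, the glutamine synthetase gene, averaged 56.8 CPM in SIRMu-1, 54.8 CPM in rMC-1 and 143 CPM in primary cultures. Sox9 averaged 71.6 CPM in SIRMu-1, 0.0358 CPM in rMC-1 and 52.2 CPM in primary cultures. The channel genes Kcnj10 and Aqp4 and the retinoid gene Rlbp1 averaged under 1 CPM in each group. Summed over a group, Kcnj10 had 0 counts in SIRMu-1, 9 in rMC-1 and 13 in primary cultures. Aqp4 had 0 counts in SIRMu-1, 0 in rMC-1 and 2 in primary cultures, and Rlbp1 had 22 in SIRMu-1, 109 in rMC-1 and 6 in primary cultures. In bulk RNA such as this, fewer cells of a type and less RNA per cell cannot be told apart.

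More members were called in rMC-1 than in SIRMu-1, each against primary cultures. A gene was called at an edgeR quasi-likelihood adjusted p under 0.05 (Benjamini-Hochberg adjustment over all 11321 genes tested). In rMC-1 against primary cultures, 1 of the 6 tested members was higher (Gjc1) and 5 were lower, while 31.9% of all tested genes were called higher and 38.9% lower. In SIRMu-1 against primary cultures, 0 members were called higher and 3 lower (Gja5, Gjb2 and Panx1), against 21.7% and 24.4% of all tested genes. In SIRMu-1 against rMC-1, 2 members were higher (Gja1 and Gja4) and 1 was lower (Gjc1), against 32.7% and 30.5% of all tested genes. The median log2 fold change of the tested members was -3.09 in rMC-1 against primary cultures, -0.93 in SIRMu-1 against primary cultures and 0.83 in SIRMu-1 against rMC-1. Over all tested genes the medians were -0.15, -0.02 and 0.03. Gjb2 passed the filter only through the primary cultures and so had to differ; of the other 5 tested members, 1 was higher and 4 lower in rMC-1, and 2 were lower in SIRMu-1, against primary cultures. Both comparisons with the primary cultures use the same 4 primary libraries. Scaling by library totals alone moved the all-gene median by 0.47 in rMC-1 against primary cultures and by -0.43 in SIRMu-1 against rMC-1. The share of calls that were higher was then 61.9% in place of 45.1% in the first of these, and 30.8% in place of 51.7% in the second, and no tested member changed direction or call under that scaling.

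The count in SIRMu-1 against primary cultures rested on single libraries. Without primary replicate 1, 1 member was higher and 1 was lower, of 5 tested. Without primary replicate 4, 1 was higher and 2 were lower, of 5 tested. Gjb2 did not pass the filter in fits without primary replicate 1, 3 or 4. An alternative chosen after seeing the data, without primary replicate 4 and with no count filter, gave 1 higher and 3 lower of 6.

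**Figure D1:**
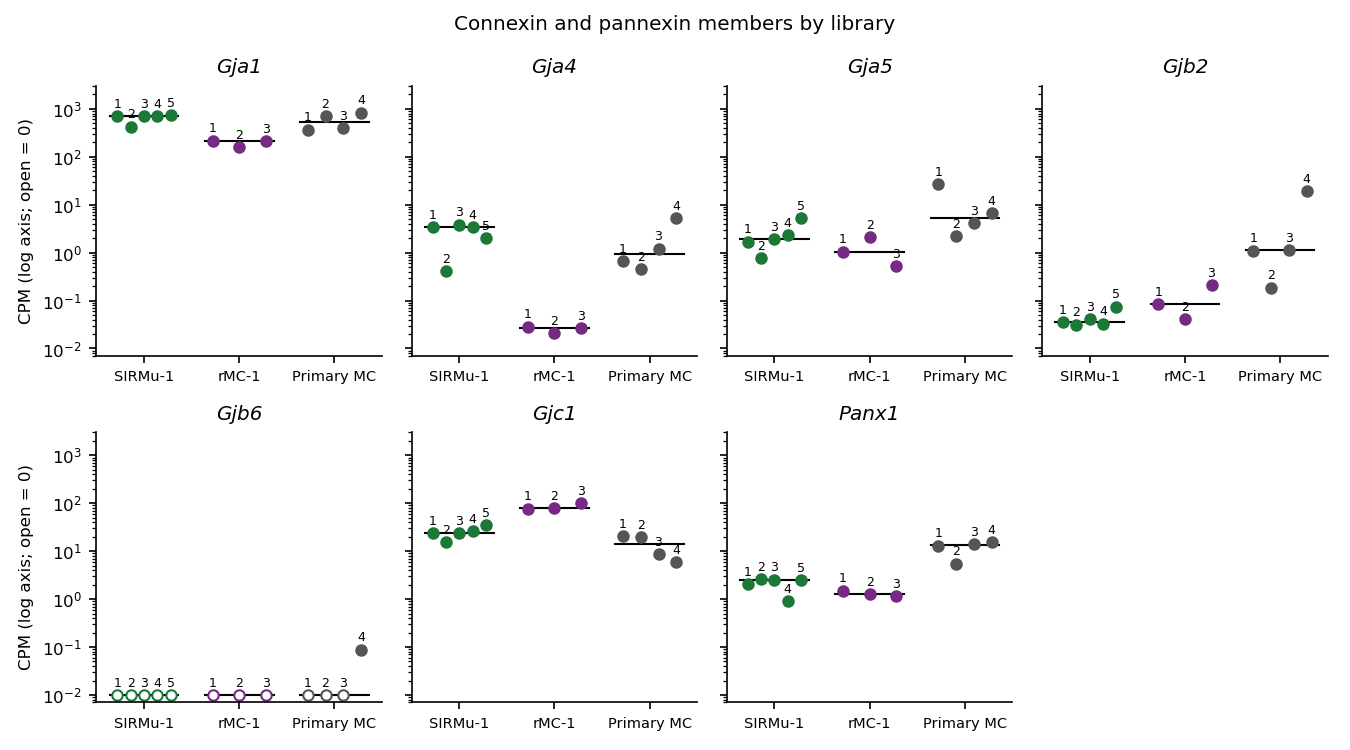
CPM (log axis) of the 7 members in each library of SIRMu-1 (5), rMC-1 (3) and primary cultures (4), with replicate numbers above the points, lines at group medians and open points for 0 counts. Panx1 lies lower in every library of both lines than in every primary library, and Gja4 and Gjb2 each have primary replicate 4 far above the other primary libraries.

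**Figure D2:**
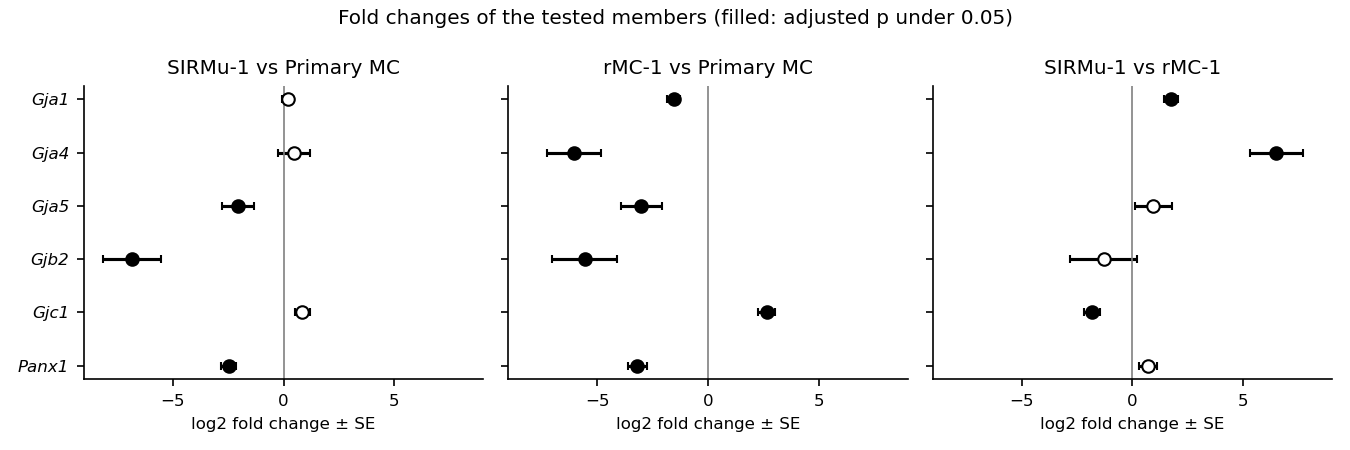
Log2 fold changes (points) with standard errors (bars) of the 6 tested members in the 3 comparisons, first-named group over second. Gjc1 is the only one of the 6 above 0 among filled points in rMC-1 against primary cultures, at 2.65.

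Gja1 encodes Cx43, the main connexin of astroglia and of many cultured cells. Its levels were 709, 424, 701, 702 and 734 CPM in SIRMu-1 replicates 1 to 5, 217, 160 and 210 CPM in rMC-1 replicates 1 to 3, and 370, 698, 391 and 832 CPM in primary replicates 1 to 4. All rMC-1 libraries lay below all primary and all SIRMu-1 libraries, and SIRMu-1 lay within the range of the primary cultures. Group means were 654 ± 129 CPM in SIRMu-1 (SD, n = 5), 195 ± 31.1 CPM in rMC-1 (SD, n = 3) and 573 ± 229 CPM in primary cultures (SD, n = 4). The log2 fold change of rMC-1 against primary cultures was -1.55 ± 0.30 (SE, edgeR adjusted p = 0.000700). SIRMu-1 against rMC-1 gave 1.74 ± 0.30 (edgeR adjusted p = 0.000336), and SIRMu-1 against primary cultures 0.19 ± 0.26 (edgeR adjusted p = 0.567). The last did not pass the test, and with its error it does not show that the levels were equal.

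Within SIRMu-1, replicate 2 had the low Gja1 value of 424 CPM. The same library had 38.9 CPM of Mki67, a marker of cycling cells, where the other SIRMu-1 libraries had 173 to 317. Its summed level of 11 pericyte and smooth muscle markers, 16706 CPM, was the highest of the line but near those of most others. Replicates 1, 3 and 4 had 15416, 15929 and 14003 CPM, and replicate 5 had 7056. The part of either in the Gja1 value was not tested.

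Gjc1 encodes Cx45, a connexin of smooth muscle, cardiac conduction tissue and retinal neurons. Of the tested members it alone was called higher in rMC-1 against primary cultures. Levels were 23.8, 15.5, 23.7, 25.8 and 34.5 CPM in SIRMu-1, 77.6, 80.2 and 101 CPM in rMC-1, and 20.8, 19.5, 8.67 and 5.95 CPM in primary cultures. Every rMC-1 library exceeded every SIRMu-1 and primary library, and SIRMu-1 replicate 2 overlapped with the primary range. Means were 24.7 ± 6.81 CPM in SIRMu-1 (SD, n = 5), 86.3 ± 12.8 CPM in rMC-1 (SD, n = 3) and 13.7 ± 7.51 CPM in primary cultures (SD, n = 4).

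The log2 fold change of Gjc1 was 2.65 ± 0.39 in rMC-1 against primary cultures (edgeR adjusted p = 9.36e-05) and -1.81 ± 0.36 in SIRMu-1 against rMC-1 (edgeR adjusted p = 0.000979). In SIRMu-1 against primary cultures it was 0.84 ± 0.35 and missed the threshold (edgeR adjusted p = 0.0661). That difference passed when primary replicate 1 (1.11, edgeR adjusted p = 0.0312), primary replicate 2 (1.05, 0.0444) or SIRMu-1 replicate 2 (0.97, 0.0398) was left out. Mki67 stood in the same order of groups, at 38.9 to 317 CPM in SIRMu-1, 572 to 622 CPM in rMC-1 and 7.45 to 13.5 CPM in primary cultures. Whether Gjc1 RNA moved with growth was not tested.

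Gja4 encodes Cx37, best known from endothelium and from the oocyte and its granulosa cells. It had 3.41, 0.409, 3.84, 3.39 and 2.02 CPM in SIRMu-1 and 0.670, 0.449, 1.21 and 5.29 CPM in primary cultures. Each rMC-1 library had 1 count, or 0.0285, 0.0206 and 0.0263 CPM. The lowest library of either other group lay above all 3 rMC-1 libraries, whereas SIRMu-1 and primary cultures overlapped. Against the 3 counts of rMC-1, the summed level was 103 times higher in SIRMu-1 (95% counting interval 35.0 to 502) and 73.5 times higher in primary cultures (24.7 to 360). These intervals are exact and cover counting error only. The fitted log2 fold changes were -6.04 ± 1.21 for rMC-1 against primary cultures (edgeR adjusted p = 0.000841) and 6.50 ± 1.21 for SIRMu-1 against rMC-1 (edgeR adjusted p = 0.000619), and their size depends on the prior count.

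In SIRMu-1 against primary cultures the log2 fold change of Gja4 was 0.46 ± 0.73 (edgeR adjusted p = 0.631). Primary replicate 4 decided this. Without it the value was 1.75 (edgeR adjusted p = 0.0450), and the fitted value of rMC-1 against primary cultures was -4.75.

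Gja5 encodes Cx40, the connexin of arterial endothelium and atrial muscle. Levels were 1.71, 0.755, 1.94, 2.30 and 5.24 CPM in SIRMu-1, 1.05, 2.10 and 0.527 CPM in rMC-1, and 26.7, 2.21, 4.07 and 6.70 CPM in primary cultures. All rMC-1 libraries were below all primary libraries, the nearest being 2.10 and 2.21 CPM, while SIRMu-1 overlapped with both other groups. The log2 fold change was -2.06 ± 0.74 in SIRMu-1 against primary cultures (edgeR adjusted p = 0.0380) and -3.00 ± 0.92 in rMC-1 against primary cultures (edgeR adjusted p = 0.0118). Between the lines it was 0.95 ± 0.83 (edgeR adjusted p = 0.339).

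The Gja5 call in SIRMu-1 leaned on primary replicate 1, the library with 26.7 CPM. Without it the log2 fold change was -0.86 (edgeR adjusted p = 0.282). The call was also lost without SIRMu-1 replicate 1, 2, 3 or 4, at -1.96 (0.0783), -1.83 (0.0678), -1.99 (0.0764) and -2.04 (adjusted p = 0.0724). In rMC-1 the value was -1.81 without primary replicate 1 (edgeR adjusted p = 0.0420) and -2.56 without rMC-1 replicate 3, where the call was lost (0.0535). Primary replicate 1 also had the highest primary sums of neuron markers (693 CPM, the others 127 to 463), microglia and macrophage markers (15.6 CPM, the others 3.71 to 6.48) and pericyte and smooth muscle markers (14963 CPM, the others 10118 to 11145). Most of its neuron sum was Stmn2 (481 CPM) and Tubb3 (202 CPM). Other neuron markers did not stand apart there, with Map2 at 8.44 CPM (the others 8.20 to 56.7) and Snap25 at 0. The sum of 10 endothelial markers in primary replicate 1 was 24.3 CPM within a primary range of 12.1 to 29.0. The endothelial genes Cdh5, Cldn5 and Emcn had 0 counts in every primary library. The part of those other markers in the Gja5 level was not tested.

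Gjb2 encodes Cx26, a connexin of epithelia, of cochlear supporting cells and of the meninges. SIRMu-1 libraries held 1, 1, 1, 1 and 2 counts (0.0315 to 0.0749 CPM) and rMC-1 libraries 3, 2 and 8 counts (0.0855, 0.0412 and 0.211 CPM). Primary libraries had 28, 5, 25 and 437 counts, or 1.10, 0.187, 1.12 and 19.3 CPM. Every SIRMu-1 library lay below every primary library, whereas rMC-1 replicate 3 lay above primary replicate 2. Gjb2 passed the filter only through the primary cultures and so had to differ from them. The fitted log2 fold changes against primary cultures, -6.85 ± 1.31 in SIRMu-1 and -5.56 ± 1.45 in rMC-1, are therefore given as a description. SIRMu-1 against rMC-1 gave -1.29 ± 1.51 (edgeR adjusted p = 0.479).

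Most Gjb2 reads of the primary cultures came from replicate 4. Without it and with no filter, a fit chosen after seeing the data gave log2 fold changes of -4.09 in SIRMu-1 and -2.79 in rMC-1. Both values are against the other 3 primary libraries and are likewise a description. Gjb6 encodes Cx30, the second connexin of mature astrocytes, and neighbours Gjb2 in the RefSeq rat annotation. It had 0 counts in every SIRMu-1 and rMC-1 library and 2 counts in 1 primary library, again replicate 4 (0.0881 CPM), so no difference was detectable at this depth. A count of 0 over the group allows up to 0.0212 CPM in SIRMu-1 and 0.0247 CPM in rMC-1 (3 counts over the group).

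Primary replicate 4 also differed from the other primary libraries in marker genes. The sum of 6 astrocyte markers was 44.8 CPM there and 5.35 to 7.42 CPM in the other 3, with Gfap at 19.3 CPM (others 2.10 to 3.00) and S100b at 21.8 CPM (others 1.76 to 4.02). All 6 astrocyte markers had counts in that library, though Aqp4 had 2 and Pax2 had 3. Aldh1l1 was at 3.35 CPM there (others 0.749 to 0.894). Slc1a2 did not stand apart, at 0.176 CPM (others 0.0894 to 0.749). In replicate 4 the sum of 7 epithelial markers was 12.3 CPM against 2.62 to 8.67, with Krt5 at 0 in every primary library. Krt8 was most of it, at 8.15 CPM (others 2.21 to 7.20). The sum of 10 endothelial markers was also highest in replicate 4, at 29.0 CPM (others 12.1 to 25.0), with Cdh5, Cldn5 and Emcn at 0. Its fibroblast sum was the lowest at 29950 CPM (others 86496 to 134538). Of 7 leptomeningeal markers, 6 had counts in replicate 4, and 3 stood apart there. Ptgds was at 12.3 CPM (others 0.0447 to 0.670), Crabp2 at 40.1 CPM (others 0.984 to 5.60) and Zic1 at 2.64 CPM (others 0.134 to 0.947). Aldh1a2 was at 2.20 CPM in replicate 4 and highest in replicate 3, at 61.2 CPM. Foxc1, at 62.9 CPM in replicate 4, lay within the range of the others (43.8 to 93.6). The sum of the 7 was 120 CPM in replicate 4 and 51.0 to 119 CPM in the other 3, with Slc22a6 at 0 in every primary library. Among Müller markers, Glul was at 228 CPM in replicate 4 (others 67.7 to 161), Slc1a3 at 53.2 CPM (others 14.8 to 35.6) and Car2 at 17.9 CPM (others 2.15 to 7.85). Kcnj10 was also highest there, with 8 counts. Dkk3 (772 CPM, others 1188 to 1524) and Sox9 (37.2 CPM, others 40.3 to 83.8) were lowest there. Vim, Apoe, Rlbp1 and Abca8a lay within the range of the others, as did the Müller sum (7408 CPM, others 7237 to 8740). The part of what these markers stand for in the Gja4, Gjb2 and Gjb6 values was not tested.

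Panx1 encodes the widely expressed channel through which many cells release ATP. It was lower in both lines than in primary cultures. Levels were 2.06, 2.64, 2.56, 0.922 and 2.47 CPM in SIRMu-1, 1.51, 1.26 and 1.16 CPM in rMC-1, and 13.0, 5.50, 13.8 and 15.4 CPM in primary cultures. The highest line library, 2.64 CPM, was below the lowest primary library, 5.50 CPM, and the lines overlapped with each other. Means were 2.13 ± 0.712 CPM in SIRMu-1 (SD, n = 5), 1.31 ± 0.181 CPM in rMC-1 (SD, n = 3) and 11.9 ± 4.39 CPM in primary cultures (SD, n = 4).

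The log2 fold change of Panx1 was -2.48 ± 0.35 in SIRMu-1 against primary cultures (edgeR adjusted p = 0.000201) and -3.18 ± 0.44 in rMC-1 against primary cultures (edgeR adjusted p = 5.06e-05). It stayed between -2.72 and -2.24 in SIRMu-1 and between -3.43 and -2.72 in rMC-1 over 22 and 21 alternative settings, and passed the test in each. SIRMu-1 against rMC-1 gave 0.70 ± 0.39 (edgeR adjusted p = 0.133), which passed only without SIRMu-1 replicate 4 (0.90, adjusted p = 0.0347).

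Panx2 and Panx3, the remaining pannexins, did not follow Panx1 alike. Panx2, known chiefly from neurons and glia, had 1 count over all SIRMu-1 libraries and 7 over all rMC-1 libraries, in 5, 2 and 0 counts. Primary libraries had 5.60, 5.20, 9.44 and 12.2 CPM, all far above both lines. The summed level in primary cultures was 1116 times that in SIRMu-1 (95% counting interval 200 to 44153). Panx2 passed the filter only through the primary cultures and so had to differ from them. The fitted log2 fold changes against primary cultures, -9.49 ± 0.82 in SIRMu-1 and -7.00 ± 0.82 in rMC-1, are therefore given as a description. Between the lines the fitted value of -2.49 ± 1.12 missed the threshold (edgeR adjusted p = 0.0701) and passed without SIRMu-1 replicate 1 (-3.93, 0.0492) or rMC-1 replicate 3 (-3.10, adjusted p = 0.0177).

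Panx3 is known from bone, cartilage and skin. SIRMu-1 libraries had 82.1, 139, 53.8, 23.3 and 7.83 CPM and primary libraries 24.8, 13.5, 4.61 and 7.36 CPM, whereas rMC-1 had 1 count in 3 libraries. The first 2 groups overlapped, and both lay above every rMC-1 library. SIRMu-1 against primary cultures gave 2.28 ± 0.73 log2 units (edgeR adjusted p = 0.0237). Leaving out primary replicate 2 (2.31, edgeR adjusted p = 0.0524), 3 (2.00, 0.0557) or 4 (2.09, 0.0625), or SIRMu-1 replicate 2 (1.73, 0.0545), ended that call. Against the single count of rMC-1, the level was 7700 times higher in SIRMu-1 (95% counting interval 1382 to 304174) and 1578 times higher in primary cultures (283 to 62361). The fitted values were 12.28 ± 1.60 for SIRMu-1 against rMC-1 (edgeR adjusted p = 4.75e-05) and -9.99 ± 1.61 for rMC-1 against primary cultures (edgeR adjusted p = 0.000167).

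**Figure D3:**
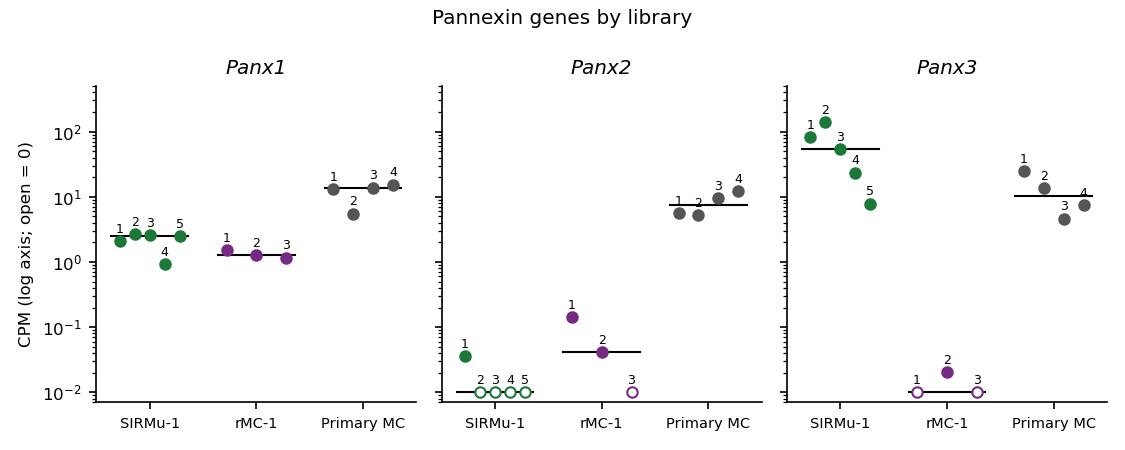
CPM (log axis) of Panx1, Panx2 and Panx3 in each library of SIRMu-1, rMC-1 and primary cultures, with replicate numbers above the points, lines at medians and open points for 0 counts. Panx1 and Panx2 lie below every primary library in both lines, and Panx3 is highest in SIRMu-1 replicate 2 (139 CPM) and near 0 in rMC-1.

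Gjb5 is known as a connexin of skin and other stratified epithelia, and it did not pass the count filter. SIRMu-1 libraries had 4, 5, 9, 2 and 0 counts, rMC-1 libraries 0 each, and primary libraries 5, 7, 2 and 65 counts, or 0.197, 0.262, 0.0894 and 2.86 CPM. Most of its primary reads were thus in replicate 4, whose marker levels are given above. Against the 3-count limit over the group, Gjb5 was at least 5.74-fold higher in SIRMu-1 and at least 33.0-fold higher in primary cultures than in rMC-1. Gja4 and Gjb5 were each highest in replicate 4 among the primary libraries, as were Gja1, Gjb2, Panx1 and Panx2. Among the SIRMu-1 libraries both were highest in replicate 3, by little. Gja4 there, at 3.84 CPM, was near replicates 1 and 4 (3.41 and 3.39 CPM), and Gjb5 had only 9 counts there.

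Of the 10 other connexin and pannexin genes reported here, 5 had 10 or more counts in at least 1 library, and 3 were tested (Panx2, Panx3 and Gja3). Gja3 (Cx46), known from lens fibre cells, had 1.32, 2.23, 1.65, 2.21 and 0.225 CPM in SIRMu-1, 3.79, 3.32 and 2.87 CPM in rMC-1, and 0.789, 0.150, 2.28 and 1.76 CPM in primary cultures. All rMC-1 libraries lay above all others. The log2 fold change of rMC-1 against primary cultures was 1.42 ± 0.75 (edgeR adjusted p = 0.110, and 0.0469 without SIRMu-1 replicate 5, which shares the estimate of spread).

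Gjd4 had 2 counts in SIRMu-1, 16 in rMC-1 and 3 in primary cultures. Its level in rMC-1 was 4.26 times that in primary cultures (95% counting interval 1.22 to 22.8). Of the 16 counts, 10 were in rMC-1 replicate 2, and the groups overlapped. Replicates 1 and 3 of rMC-1 (0.0855 and 0.0790 CPM) lay below primary replicate 4 (0.0881 CPM). Gjb1 had no counts in any library, and Gja6, Gja10, Gjd2 and Gje1 had at most 2 in any library.

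Gentamicin and amphotericin B separated SIRMu-1 replicates 3 and 5 from replicates 1, 2 and 4. None of the 6 tested members was called, as for 0% of the 11636 genes tested in that fit. At an unadjusted p under 0.05 there were 433 of the 11636 genes, below the share of 0.05 expected with no difference at all. DESeq2 called 4. Gja1 had 701 and 734 CPM with the drugs, against 709, 424 and 702 CPM without them. Panx1 had 2.56 and 2.47 CPM with the drugs, against 2.06, 2.64 and 0.922 CPM without them. The log2 fold changes of the members lay between 0.23 and 1.18, with edgeR adjusted p of 0.986 to 1, and each SE from 0.35 up to 2.33. With 2 libraries against 3, and with passage unbalanced over the split, this does not show that the drugs left these genes alone.

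Genes whose proteins bind or act on connexins were described from lists named for their role. Of 14 tested scaffold, adhesion and cytoskeleton partners, 4 were higher and 2 lower in SIRMu-1 against primary cultures, and 4 higher and 4 lower in rMC-1 against primary cultures. Of all tested genes, 21.7% were higher and 24.4% lower in SIRMu-1, and 31.9% higher and 38.9% lower in rMC-1, shares that also stand against the lists that follow. The 4 higher in SIRMu-1 became 1 without primary replicate 2 or SIRMu-1 replicate 1, 3 or 4, and 2 without primary replicate 1 or 3 or SIRMu-1 replicate 5. The list medians were -0.056 and 0.0099 on the log2 scale. Cdh2 (N-cadherin, an adhesion molecule that helps gap junctions form) averaged 7.01 ± 9.44 CPM in SIRMu-1 (SD, n = 5), 3.09 ± 4.14 CPM in rMC-1 (SD, n = 3) and 109 ± 95.9 CPM in primary cultures (SD, n = 4). Its log2 fold change was -3.95 ± 1.04 in SIRMu-1 (edgeR adjusted p = 0.00888) and -5.16 ± 1.38 in rMC-1 (edgeR adjusted p = 0.00527). Without SIRMu-1 replicate 4 it was -5.25 in SIRMu-1, without primary replicate 4 it was -3.20, and without rMC-1 replicate 1 it was -7.21 in rMC-1.

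Cav2, a caveolin of membrane invaginations, was higher in SIRMu-1 than in primary cultures at 111 ± 3.77 CPM against 39.2 ± 14.8 CPM (log2 fold change 1.50 ± 0.22, edgeR adjusted p = 0.000267). The matricellular protein gene Nov, also called Ccn3, whose product binds Cx43, averaged 375 ± 106 CPM in SIRMu-1, 2.07 ± 0.975 CPM in rMC-1 and 305 ± 375 CPM in primary cultures. Its log2 fold change was -7.19 ± 1.21 in rMC-1 against primary cultures (edgeR adjusted p = 0.000231; -5.94 without primary replicate 3) and 7.49 ± 1.21 in SIRMu-1 against rMC-1 (edgeR adjusted p = 0.000228).

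Tjp3 and Ezr stood higher in rMC-1. Tjp3 passed the filter only through the rMC-1 libraries and so had to differ, and its values are a description. This gene, a scaffold of epithelial tight junctions, averaged 0.0991 ± 0.0705 CPM in SIRMu-1, 21.4 ± 3.37 CPM in rMC-1 and 0.201 ± 0.129 CPM in primary cultures, with a fitted log2 fold change of 6.73 ± 0.55 in rMC-1 against primary cultures and -7.70 ± 0.53 in SIRMu-1 against rMC-1. Ezr, a link between membrane and actin, rose by 3.26 ± 0.48 log2 units in rMC-1 against primary cultures (edgeR adjusted p = 8.84e-05), and it was at 40.1 ± 14.2 CPM in SIRMu-1 against 166 ± 29.3 CPM in rMC-1 (log2 -2.05 ± 0.43, edgeR adjusted p = 0.00144). Cgnl1, a junction-associated protein, was at 28.2 ± 10.7 CPM in SIRMu-1 against 1.27 ± 0.412 CPM in rMC-1 (log2 4.46 ± 0.74, edgeR adjusted p = 0.000258). In SIRMu-1 against rMC-1, 4 partners were higher and 4 lower, where 32.7% and 30.5% of all tested genes were. Without Tjp3 the counts were 3 higher and 4 lower of 13 in rMC-1 against primary cultures, and 4 higher and 3 lower in SIRMu-1 against rMC-1. The sum of 7 epithelial markers was 9.28 to 22.1 CPM in SIRMu-1, 50.4 to 90.1 CPM in rMC-1 and 2.62 to 12.3 CPM in primary cultures, with Krt5 and Krt18 at 0 in rMC-1, and its part in these levels was not tested.

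Of 15 tested kinases and phosphatases that act on connexin tails, 2 were higher, 1 was lower and 12 did not pass the test in SIRMu-1 against primary cultures. In rMC-1 against primary cultures 7 were higher and 5 lower. In SIRMu-1 against rMC-1 4 were higher and 7 lower, where 32.7% and 30.5% of all tested genes were. The 2 higher in SIRMu-1 became 1 without primary replicate 3 or 4 or SIRMu-1 replicate 1, 3 or 4. The 1 lower there became 0 without SIRMu-1 replicate 3 or 4, and 2 without primary replicate 4, SIRMu-1 replicate 5 or rMC-1 replicate 2. The 5 lower in rMC-1 became 2 without rMC-1 replicate 2 and 3 without rMC-1 replicate 3. Ppp1ca, a catalytic subunit of protein phosphatase 1, rose in SIRMu-1 to 552 ± 74.4 CPM, against 181 ± 20.4 CPM in primary cultures (log2 1.61 ± 0.13, edgeR adjusted p = 6.79e-06). Prkaca, the catalytic subunit of protein kinase A, was at 246 ± 4.36 CPM in rMC-1 against 81.0 ± 8.83 CPM in primary cultures (log2 1.60 ± 0.10, edgeR adjusted p = 1.91e-07). Csnk1e, a casein kinase 1, rose by 1.31 ± 0.12 log2 units in rMC-1 against primary cultures (edgeR adjusted p = 1.96e-06). The protein kinase C gene Prkcd fell by 1.71 ± 0.15 log2 units in rMC-1 against primary cultures (edgeR adjusted p = 1.39e-06), and Prkce fell by 1.91 ± 0.28 log2 units (edgeR adjusted p = 7.92e-05). Between SIRMu-1 and rMC-1 these 4 kinases differed as well, with log2 fold changes of -1.61 ± 0.09 for Prkaca, -1.08 ± 0.11 for Csnk1e, 1.70 ± 0.14 for Prkcd and 1.20 ± 0.26 for Prkce, each past the test.

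Connexins turn over within hours, through ubiquitin ligases, endocytic adaptors and autophagy. Of 13 tested trafficking genes, 1 was higher and 3 lower in SIRMu-1 against primary cultures, and 3 higher and 8 lower in rMC-1 against primary cultures. In SIRMu-1 against rMC-1 6 were higher and 4 lower, where 32.7% and 30.5% of all tested genes were. The 8 lower in rMC-1 became 5 when any 1 of its 3 libraries was left out, near the 38.9% of all tested genes. Ubqln4, a ubiquilin that handles ubiquitinated proteins, rose by 1.00 ± 0.10 log2 units in SIRMu-1 (edgeR adjusted p = 2.66e-05) and by 1.65 ± 0.11 log2 units in rMC-1 (edgeR adjusted p = 3.28e-07), both against primary cultures. Dab2, an endocytic adaptor, averaged 67.2 ± 35.2 CPM in SIRMu-1, 21.2 ± 6.06 CPM in rMC-1 and 189 ± 59.0 CPM in primary cultures. It fell by 3.15 ± 0.44 log2 units in rMC-1 against primary cultures (edgeR adjusted p = 6.25e-05) and was 1.66 ± 0.40 log2 units higher in SIRMu-1 than in rMC-1 (edgeR adjusted p = 0.00359). Sqstm1, the autophagy receptor p62, fell by 1.54 ± 0.12 log2 units in rMC-1 (edgeR adjusted p = 6.11e-07). Nedd4, a ligase of Cx43, averaged 2990 ± 127 CPM in SIRMu-1 against 1381 ± 169 CPM in rMC-1 (log2 1.11 ± 0.19, edgeR adjusted p = 0.000288). Ap2m1, a clathrin adaptor subunit, averaged 411 ± 41.7 CPM in SIRMu-1 against 871 ± 75.9 CPM in rMC-1 (log2 -1.08 ± 0.11, edgeR adjusted p = 7.74e-06).

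ATP that leaves through pannexin and connexin channels acts on P2 receptors, and ectoenzymes break it down to adenosine. Of 10 tested genes for other release routes and P2 receptors, 0 were higher and 2 lower in SIRMu-1 against primary cultures, and 0 were higher and 7 lower in rMC-1 against primary cultures, with log2 medians of -0.14 and -1.79. The SIRMu-1 count is near the 24.4% of all tested genes that were lower there, and the rMC-1 count stands beside 38.9%. P2ry1 needed the SIRMu-1 libraries to pass the filter, and without it 6 of 9 were lower in rMC-1. Leaving out single libraries gave 5 to 7 lower in rMC-1, with 5 of 10 without rMC-1 replicate 2 or 3. P2rx4, an ATP-gated cation channel, had 6.72 ± 0.661 CPM in rMC-1 against 30.8 ± 3.99 CPM in primary cultures (log2 -2.19 ± 0.16, edgeR adjusted p = 5.87e-07). Calhm2, of a family that holds ATP-releasing channels, had 26.9 ± 3.78 CPM in rMC-1 against 87.1 ± 14.3 CPM in primary cultures (log2 -1.70 ± 0.24, edgeR adjusted p = 5.54e-05).

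In SIRMu-1 against rMC-1, 6 of these 10 were higher and 1 was lower (5 and 1 of 9 without P2ry1). Of all tested genes, 32.7% were higher and 30.5% lower there. The 6 higher became 4 without rMC-1 replicate 2 or 3, and the 1 lower became 2 without SIRMu-1 replicate 5. Calhm2 was 1.65 ± 0.23 log2 units higher (edgeR adjusted p = 7.16e-05). Slc17a9, which loads ATP into vesicles, had 5.40 ± 2.31 CPM in SIRMu-1 against 0.661 ± 0.615 CPM in rMC-1 (log2 3.04 ± 0.90, edgeR adjusted p = 0.0109). That call was lost without rMC-1 replicate 2 (2.54, adjusted p = 0.0535) or replicate 3 (2.66, 0.0549), and the value was 4.04 without replicate 1.

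Of 12 tested genes for nucleotide breakdown, adenosine transport and adenosine receptors, 3 passed the filter only through the primary cultures and so had to differ. These were the ectonucleotidases Entpd1, Entpd2 and Entpd3, named here after their values were seen, with 1, 1 and 0 counts in SIRMu-1 and 0, 8 and 2 in rMC-1, against 564, 81 and 78 in primary cultures. Of the other 9, 0 were higher and 6 lower in SIRMu-1 against primary cultures (24.4% of all tested genes were lower), with a median log2 fold change of -1.91. In rMC-1 against primary cultures 1 of the 9 was higher (Ada, adenosine deaminase, 0.72 ± 0.26, edgeR adjusted p = 0.0247) and 7 were lower (38.9% of all tested genes were lower), with a median of -2.77. Over all 12, 9 were lower in SIRMu-1 and 10 in rMC-1, with medians of -2.71 and -4.00. The medians over all 12 were the same with genes at 0 in a line put at their bound. Leaving out single libraries gave, of all that were then tested, 7 to 9 lower in SIRMu-1 and 8 to 10 lower in rMC-1. In SIRMu-1 against rMC-1, 6 of the 12 were higher and 1 was lower, with a median of 1.16 (0.73 with genes at 0 put at their bound). Of all tested genes, 32.7% were higher and 30.5% lower there.

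Nt5e (CD73), which makes adenosine from AMP, averaged 2.76 ± 0.892 CPM in SIRMu-1 (SD, n = 5), 0.0769 ± 0.0595 CPM in rMC-1 (SD, n = 3) and 23.8 ± 22.4 CPM in primary cultures (SD, n = 4). The highest SIRMu-1 library, 4.23 CPM, lay just below the lowest primary library, 4.67 CPM. Its log2 fold change was -3.11 ± 0.58 in SIRMu-1 (edgeR adjusted p = 0.00117) and -8.24 ± 0.97 in rMC-1 (edgeR adjusted p = 1.62e-05), both against primary cultures, and 5.13 ± 0.89 in SIRMu-1 against rMC-1 (edgeR adjusted p = 0.000380). Primary replicate 2, at 55.9 CPM, raised the primary mean, and without it the log2 values were -2.25 in SIRMu-1 and -7.38 in rMC-1. Without rMC-1 replicate 1 the rMC-1 value was -8.84.

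Adora2b, a low-affinity adenosine receptor, had 1.74 ± 0.869 CPM in SIRMu-1 against 8.64 ± 1.75 CPM in primary cultures (log2 -2.31 ± 0.40, edgeR adjusted p = 0.000767). Alpl, an alkaline phosphatase that also strips phosphate from nucleotides, averaged 2.73 ± 1.06 CPM in SIRMu-1, 0.112 ± 0.104 CPM in rMC-1 and 31.7 ± 35.5 CPM in primary cultures. Its log2 fold change was -8.14 ± 1.29 in rMC-1 against primary cultures (edgeR adjusted p = 0.000147), -7.05 without primary replicate 2 and -8.97 without rMC-1 replicate 1. In SIRMu-1 against rMC-1 it was 4.60 ± 1.16 (edgeR adjusted p = 0.00453), and 5.40 without rMC-1 replicate 1.

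**Figure D4:**
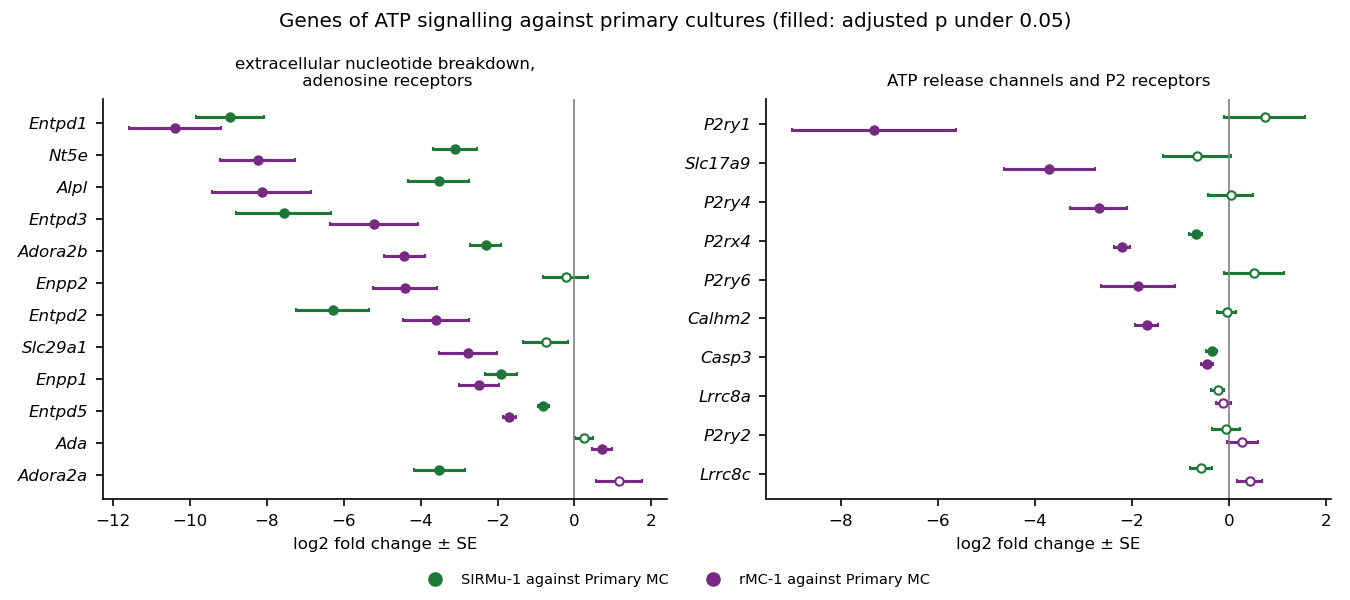
Log2 fold changes (points) with standard errors (bars) against primary cultures of SIRMu-1 (green, upper of each pair) and rMC-1 (purple, lower) for 12 genes of nucleotide breakdown and adenosine handling and 10 of ATP release and P2 receptors. In the first list 9 points of SIRMu-1 and 10 of rMC-1 are filled and below 0, and in the second 2 and 7 are. Entpd1, Entpd2 and Entpd3 passed the filter only through the primary cultures and so had to differ. Without them 6 and 7 of 9 in the first list are lower, and without P2ry1 2 and 6 of 9 in the second. Of all tested genes, 24.4% were lower in SIRMu-1 and 38.9% in rMC-1.

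Of 9 tested fibroblast markers, 5 were lower and 4 did not pass the test in SIRMu-1 against primary cultures, and 1 was higher and 8 lower in rMC-1 against primary cultures. Of 9 tested pericyte and smooth muscle markers, 2 were lower and 7 did not pass in SIRMu-1, and 8 were lower in rMC-1, both against primary cultures. Of all tested genes, 21.7% were higher and 24.4% lower in SIRMu-1, and 31.9% higher and 38.9% lower in rMC-1. The sum of 9 fibroblast markers was 37772 to 58772 CPM in SIRMu-1, 3376 to 4907 CPM in rMC-1 and 29950 to 134538 CPM in primary cultures. That of 11 pericyte and smooth muscle markers was 7056 to 16706 CPM in SIRMu-1, 1444 to 3669 CPM in rMC-1 and 10118 to 14963 CPM in primary cultures, with Kcnj8 at 0 in both lines. Both sums overlapped between SIRMu-1 and primary cultures, and Col1a1 and Acta2 were their largest parts. The sum of 11 Müller markers was 3443 to 4473 CPM in SIRMu-1, 1446 to 1532 CPM in rMC-1 and 7237 to 8740 CPM in primary cultures. Most of that sum was Vim, which mesenchymal cells also express, at means of 3540 CPM in SIRMu-1, 1367 CPM in rMC-1 and 6207 CPM in primary cultures. Slc1a3, the glutamate transporter gene of glia, averaged 55.3 CPM in rMC-1 against 34.2 CPM in primary cultures, which missed the threshold (edgeR adjusted p = 0.0827). Endothelial sums were 35.1 to 57.3 CPM in SIRMu-1, 7.69 to 11.5 CPM in rMC-1 and 12.1 to 29.0 CPM in primary cultures. In SIRMu-1 the sum was mostly Tek, at 24.5 to 44.6 CPM, while Cldn5 was at 0 and Cdh5 had 3 counts. The part of what these markers stand for in the levels of Gja1, Gja5, Gjc1, Panx1, Nt5e or Alpl was not tested.

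The tested genes whose pattern over the 12 libraries was most like that of each member were found by the root mean square difference of log2 CPM after each gene's mean was removed. For Gja1 they were Daam1 (0.27), Chst10 (0.28) and Flna (0.32), where the median over all tested genes was 0.99. For Gjc1 they were Cdc7 (0.29), Dut (0.35) and Zfp472 (0.36), with a median of 1.33 over all tested genes. For Panx1 they were Lmo2 (0.37), Ppp1r42 (0.38) and Slc24a1 (0.44), with a median of 1.48, and these 3 averaged under 1 CPM in each group. The nearest to Gja5 were Slc6a4 (0.84), Rab20 (0.84) and Kcnc1 (0.85), with a median of 1.54, so no tested gene came as close to Gja5 as for the others. Gja4, Gjb2 and Gjb6 were too low for this comparison.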

How the data were processed

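For each library the authors deposited a table of raw counts of reads for 17315 genes. The tools named in the submitters' processing notes are STAR 2.5.3a, cutadapt 1.8.1 and edgeR 3.18.1, and the genome is rn6. Their roles, the annotation and the strand setting were not stated. Without a stated strand setting, genes that overlap on opposite strands have uncertain counts. Reads in genes were 55.8% to 63.0% of a library. Rows outside genes (24.2% to 30.3%), with several mapping places (9.47% to 12.3%), ambiguous or unmapped were left out. The authors' table of log2 CPM was not used.

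Samples were grouped by their titles. The test used edgeR 4.0.16 in R 4.3.3 (TMM factors, expression filter on groups, quasi-likelihood fit of 3 group means over 12 libraries; 4 means for the drugs), with Benjamini-Hochberg adjustment over all genes tested. SE is the log2 fold change over the square root of F. Tables were handled in Python with pandas, scipy and matplotlib. The fit was tested on simulated data. The alternatives were RLE factors, library totals, DESeq2 1.42.0, no filter, 1 CPM in 3 libraries, only the groups compared, libraries of a shared file-name code summed, drug-grown SIRMu-1 only, a passage term, a replicate block and each library left out. Members and lists were chosen with earlier results of these data known. All members are named, other family genes at 10 or more counts in a library, and list genes by rule; a few genes of the lists are not reported here and are left out of the list counts and medians. Counts without genes that needed the libraries of 1 group to pass the filter were added after seeing the data. That rule took up to 2 per list and direction past the test, with a log2 change of at least 1, a mean of at least 1 log2 CPM and no overlap; Ada, P2ry genes in figures and marker genes are outside it, and Ada was chosen after its values were seen. Likeness used a prior count of 2. Of the gene symbols, 14810 matched RefSeq symbols and 2114 a synonym only; Ccn3 was matched as Nov, and Gjb7, Gjc3, Gjd3 and Cnst were not matched. Counts with 1 to 3 reads in a group carry exact 95% intervals for counting error only.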

Additional observations from a re-analysis of the deposited data

Results flagged for a closer look

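In groups of 4 or 5 libraries, 23 sets of values of connexin and pannexin genes were examined for a single library far from the rest (Dixon's 95% critical value). Of these, 7 stood out. The 1 in 20 rate of that value supposes normally distributed values. It does not hold for skewed CPM or for sets of a few counts, so the number flagged cannot be set against chance. Primary replicate 4 accounts for 4 of the 7. It had 5.29 CPM of Gja4 (others 0.449 to 1.21), 19.3 CPM of Gjb2 (others 0.187 to 1.12) and 2.86 CPM of Gjb5 (others 0.0894 to 0.262). It also had 0.0881 CPM of Gjb6, which is 2 counts where the others had 0 and lies within counting error. In the same library Gfap was at 19.3 CPM and S100b at 21.8 CPM, above the other primary libraries. Slc1a2, another astrocyte marker, was at 0.176 CPM, within the range of the others. Of the Müller markers, Glul was highest there at 228 CPM and Sox9 was lowest there at 37.2 CPM. The part of these markers was not tested.

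SIRMu-1 gave the other 3. Replicate 2 was low in Gja1 at 424 CPM, with the others at 701 to 734. Replicate 5 had 0.0749 CPM of Gjb2, which is 2 counts where the others had 1 each. Replicate 1 had 0.0356 CPM of Panx2, which is 1 count where the others had 0, so these last 2 lie within counting error.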

How the results depend on the processing

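Over the alternatives, Panx1, Gja1 and Gjc1 kept direction and call in rMC-1 against primary cultures, as did Gja1, Gja4 and Gjc1 in SIRMu-1 against rMC-1. The cause of the following changes was not tested. In SIRMu-1 against primary cultures, genes called were 3173 with libraries of a file-name code summed and 3415 with drug-grown SIRMu-1 only, in place of 5220; members called were 1 with only these 2 groups in the fit and 1 with drug-grown SIRMu-1, in place of 3. Gja5 there missed the threshold with only the 2 groups (-2.08), code-summed libraries (-1.69) and drug-grown SIRMu-1 (-1.46), and spanned -2.58 to -0.86 over left-out libraries. Gjb2 missed it with drug-grown SIRMu-1 (-6.42), and Gjc1 passed with DESeq2 (0.81) and spanned 0.59 to 1.11 over left-out libraries. Gja4 spanned 0.13 to 1.77 (1.75 without primary replicate 4), Gja5 in rMC-1 -3.56 to -1.81, and Panx1 between the lines 0.53 to 0.90. DESeq2 called 4 genes for the drugs, and left-out libraries gave 0 to 2. The drug value of Gja4 turned negative in 2 fits (range -0.25 to 0.66). Gja3 in SIRMu-1 against primary cultures, which never passed, changed sign (-0.076 to 0.77 over left-out libraries, -0.40 with drug-grown SIRMu-1). Replicate numbers shared across groups did not pair the samples (correlations of deviations -0.063 to 0.098). With them as a replicate block, genes called were 4973, 8019 and 7157, Gja5 in SIRMu-1 lost its call (-2.14, edgeR adjusted p = 0.0575) and Gjb2 between the lines gained one (-3.12, 0.0445). Gjb2 gave no value without primary replicate 1, 3 or 4. Counts of under 10 per group limit Gja4 in rMC-1, Gjb2 in SIRMu-1 and Gjb6 throughout.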
